A study of Mus musculus with 2 samples.

Results

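The genes of the proteins that build the cytosolic ribosome were followed through single-cell libraries of mouse bone marrow. Members were taken by symbol, as every gene named Rpl or Rps with a number (and the a, l or x forms), the stalk genes Rplp0, Rplp1 and Rplp2, and Rpsa. This gave 83 of the 31053 genes in the count tables, 51 of the large and 32 of the small subunit. The symbol alone decides membership, although the rule was chosen with earlier results of these data known. Of these, 80 reached 50 CPM (the count of a gene per 1000000 counts of the same cells, averaged over both libraries), and the other 3 were Rpl3l (128 and 44 UMIs in the naive and Listeria cells), Rpl39l (23 and 7 UMIs) and Rpl10l (0 UMIs in both, which allows up to 3 counts in each library). These 3 are tissue-restricted paralogs of Rpl3, Rpl39 and Rpl10.

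The study sequenced haematopoietic stem cells (HSCs, the cells that renew all blood lineages) from bone marrow of C57BL/6J wild-type mice in 1 library per condition. One library, naive, had no treatment. The other, Listeria, was made 6 weeks after a challenge with the bacterium Listeria monocytogenes. Mice were 6 to 8 weeks old per the labels, which do not say whether this is the age at challenge or at harvest, how many mice were pooled or which sort gate was used. The Listeria library was deposited under a name with KO in it, although its labels say wild type, so a difference of genotype and the infection cannot be told apart from the difference between libraries. Each library is a single sample, so no comparison below has a replicate or a test, and intervals cover counting error of unique molecular identifiers (UMIs, tags that mark single captured transcripts) only.

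Ribosomal proteins are made in near-equal amounts, each being present once in most ribosomes, and their transcripts are among the most abundant of any cell. Their mRNAs typically begin with a C and a run of pyrimidines, the terminal oligopyrimidine (TOP) motif, through which growth signals acting on mTOR set their translation. In blood the family is known from Diamond-Blackfan anaemia, in which loss of a single copy of genes such as RPS19, RPS26 or RPL5 impairs red cell production, and HSCs are known for a low rate of protein synthesis.

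Start sites in RefSeq (GRCm38.p6) were read for the 63 members with a promoter entry. A C at the annotated start followed by at least 4 further C or T on the gene's own strand was present in 13 of 75 member entries (17.3%), against 823 of 32851 entries of all genes (2.51%) and 0 of 75 entries of mitochondrial ribosomal proteins. The windows below run from 10 bases before to 20 bases from the annotated start, with the pyrimidine run that opens at the start in capitals. They are a selection of genes named below in which matches are over-represented. Rps26 and Rplp0 have no such run at the annotated base. Rpl27, Rpl41, Rpl22l1, Rps2 and Rpl37, also named below, have no match and are not shown.
Rpl38, chr11:114668570-114668599, plus strand: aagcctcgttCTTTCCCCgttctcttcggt
Rps27, chr3:90213629-90213658, minus strand: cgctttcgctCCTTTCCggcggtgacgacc
Rpl28, chr7:4792955-4792984, plus strand: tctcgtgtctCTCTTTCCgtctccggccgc
Rps21, chr2:180257369-180257398, plus strand: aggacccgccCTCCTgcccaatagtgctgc
Rps26, chr10:128626487-128626516, minus strand: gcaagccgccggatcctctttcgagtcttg
Rplp0, chr5:115559457-115559486, plus strand: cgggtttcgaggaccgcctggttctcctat
A match is a description of these letters, and a missing match says nothing of the true start, since an annotated start can lie a few bases from the one a cell uses.

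The tables held 64619150 (naive) and 43895966 (Listeria) UMIs, and 6375 and 4839 barcodes were kept as cells (at least 2500 UMIs and 500 genes, and at most 10% mitochondrial UMIs). Cells were placed in 11 gates by how many genes of a marker list each showed, none of them a ribosomal protein gene. HSC-gated cells (1109 and 980) needed at least 5 of 15 stem cell markers and showed a median of 6 in both libraries. B lineage cells (1450 and 403) needed at least 3 of 10 and showed a median of 9. The gates themselves bound these medians from below. Hlf and Mecom, both on the HSC list, stood at 334 and 348 CPM and at 199 and 206 CPM in HSC-gated cells. In multipotent progenitors they stood at 273 and 300 CPM and at 102 CPM in both libraries. The multipotent progenitor and lymphoid-primed gates rest on 2 markers in most of their cells. Cells passing both the neutrophil and myeloid progenitor gates were kept as neutrophil, and those passing both the plasma cell and B lineage gates as plasma cell. Another 59 and 12 cells passed several gates and were left out, and 1793 and 1968 passed none. The libraries shared 14 barcodes among kept cells, and without them the share of ribosomal protein UMIs stayed at 30.7% and 29.3% in the HSC gate. Free RNA (barcodes with 1 to 50 UMIs) differed between the libraries, at 29.3% ribosomal protein and 13.1% mitochondrial UMIs in the naive and 23.3% and 5.13% in the Listeria library.

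Ribosomal protein genes took 27.8% of all UMIs of kept cells (naive) and 28.4% (Listeria). They made up 71 of the 100 most abundant genes, and 75 of the 83 exceeded 1000 CPM. The median member stood at 3607 CPM, against 98.3 CPM for the median of the 3067 genes above 50 CPM. Levels are UMIs at the 3' end of transcripts, 1 per captured molecule, and were not divided by transcript length. The most abundant were Rps24 (6872 CPM) and Rps29 (6593 CPM), both of the small subunit, and the 10 most abundant held 21.1% of the family's UMIs. The lowest of the 80 were Rpl7l1 (51.1 CPM), a relative of Rpl7 known as an assembly factor, Rps27l (198 CPM), a p53-induced copy of Rps27, and Rpl13a (346 CPM). A pseudogene named after the member is annotated for 60 of the 83, 292 pseudogenes in all, so levels of those members are uncertain by whatever share of their reads matched a copy.

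The share of UMIs in the family was high and similar across stem and progenitor gates, lower in B lineage and dendritic cells, and lowest in plasma cells and neutrophils. HSC-gated cells stood at 30.7% (naive) and 29.3% (Listeria), multipotent progenitors at 30.2% and 29.1%, lymphoid-primed cells at 29.6% and 29.3%, and megakaryocyte cells at 29.7% and 28.3%. B lineage cells stood at 25.5% and 24.9%, T and NK cells at 26.8% and 27.5%, and dendritic cells at 23.4% and 21.2%. Plasma cells, which secrete antibody, stood at 12.6% and 12.3%, and neutrophils at 14.3% and 14.4%. The few cells of the myeloid progenitor (16 and 22) and erythroid (24 and 32) gates stood between 28.4% and 31.0%. From the lowest share upward, the order was plasma cell, neutrophil, dendritic, B lineage, T and NK in both libraries, and the ranges of single cells of neighbouring gates overlapped.

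**Figure D1:**
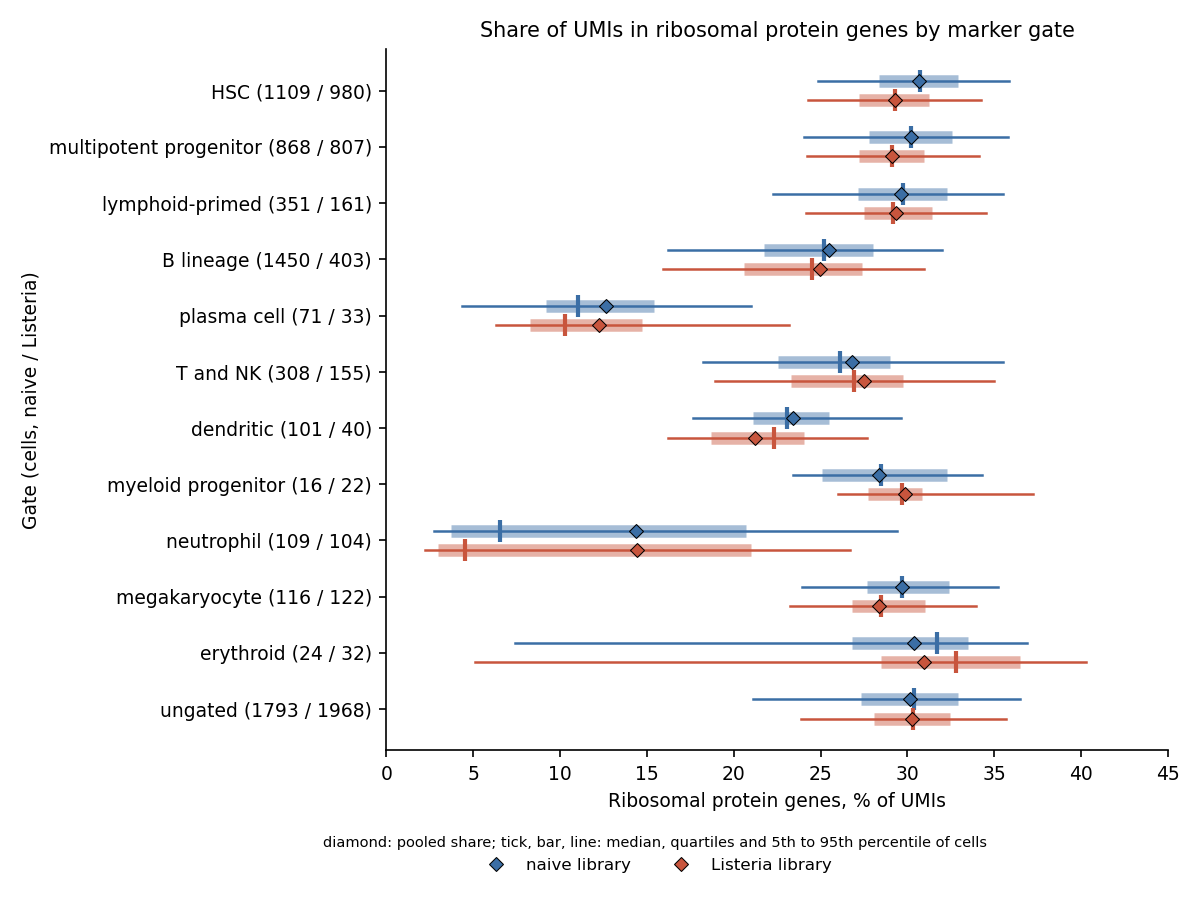
Share of UMIs in ribosomal protein genes (x axis, %) in each marker gate (y axis, with cell numbers), naive in blue and Listeria in red: diamonds are pooled shares, ticks, bars and lines the median, quartiles and 5th to 95th percentile of cells. Plasma cells and neutrophils lie at 12.3% to 14.4% pooled, all other gates at 21.2% or more.

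In numbers of UMIs per cell the gates differed in another way. An HSC-gated naive cell held on average 2278 UMIs of the family and 5149 of other genes, and a B lineage cell 2490 and 7271. A plasma cell held 1650 and 11397, with the antibody joining chain Jchain at 25553 CPM, and a neutrophil 1693 and 10105. In the naive library, to which these means belong, both had fewer family UMIs and more UMIs of other genes than HSC-gated cells. The log2 ratio of the plasma cell share to the HSC share was -1.28 (95% counting interval -1.29 to -1.27) in the naive library, and -1.26 in the Listeria library. Factors that set the typical gene equal between gates moved it to -0.11 and -0.14 (edgeR's TMM) or -0.07 and -0.10 (DESeq2's median ratio). For neutrophils the ratio was -1.10 and -1.02 as a share, -0.69 and -0.63 after TMM scaling, and -1.78 and -1.88 without dividing cells (those with several genes of G2 and M phase detected).

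The neutrophil gate also holds cells that passed the myeloid progenitor gate, so it mixes stages, and neutrophils here means all cells of the gate. Its cells showed a median of 3 (naive) and 2 (Listeria) of 7 myeloid progenitor markers. Of these, Elane stood at 7974 and 6083 CPM and Mpo at 2628 and 2541 CPM. Within the neutrophil gate cells fell into a low and a high range. The median cell had 6.52% of its UMIs in the family (naive) and 4.54% (Listeria). Both medians lay below the pooled shares, and the share and UMI total of a cell had a Spearman correlation of 0.54 over 109 naive and 0.82 over 104 Listeria cells. Mmp8, a protease of specific granules and 1 of the 10 markers of the gate, was chosen to divide these cells after their values were seen. Cells with a Mmp8 UMI pooled at 3.89% (35 cells) and 4.59% (43 cells), and those without at 17% (74 cells) and 17.4% (61 cells). The mitochondrial share was lower in the same cells, at 0.76% and 1.18% against 2.66% and 2.42%, and it correlated with the family's share over cells at 0.85 and 0.80 (Spearman). After each cell was thinned to 2500 UMIs, a median of 66 and 56 of the 83 genes had a UMI in a neutrophil, against 77 and 78 in an HSC-gated cell. Unthinned, these medians were 78 and 75 in neutrophils and 79 in HSC-gated cells of both libraries.

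**Figure D2:**
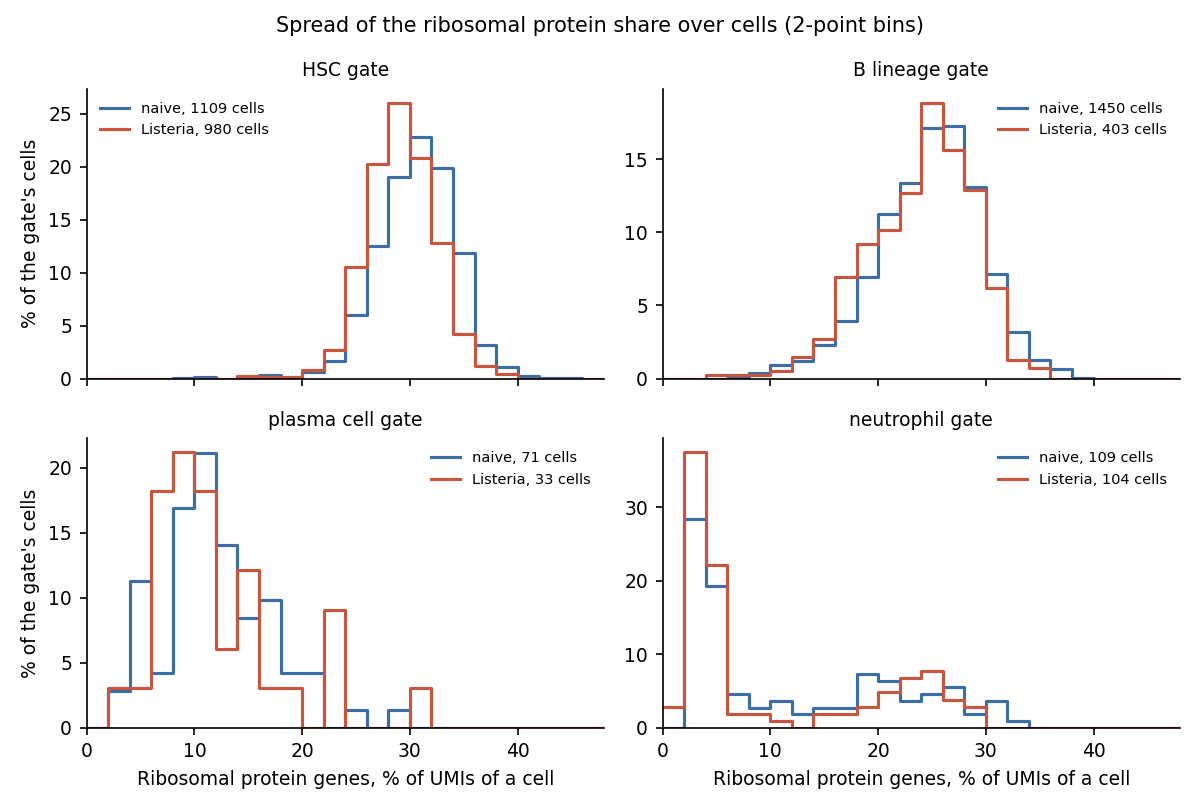
Percent of a gate's cells (y axis) by the share of a cell's UMIs in ribosomal protein genes (x axis, 2-point bins), naive in blue and Listeria in red. HSC cells form a single peak near their medians of 30.7% and 29.3%, B lineage cells a broader one, and neutrophils a peak between 2% and 6% apart from cells spread above it, with quartiles at 3.69% and 20.7% in the naive library.

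Cells with at least 3 of 15 genes of G2 and M phase detected (dividing cells) had a lower share than other cells of the same gate in most gates. In HSC-gated cells it was 27.8% in 67 dividing against 31.0% in 1042 other naive cells, and 27.6% in 86 against 29.6% in 894 Listeria cells. In megakaryocyte cells it was 27.9% against 31.4% and 26.7% against 30.3%. In B lineage cells it was 25.3% in 1091 dividing against 27.0% in 359 other naive cells, and 24.9% in 337 against 25.3% in 66 Listeria cells. Neutrophils went the other way, with 17.2% in dividing against 8.99% in other naive cells and 18.6% against 8.03% in Listeria cells. Dividing cells were also deeper (a median of 10262 against 6772 UMIs in naive HSC-gated cells), and the part of depth in the difference was not tested. The B lineage share relative to the HSC share had a log2 ratio of -0.27 (naive) and -0.23 (Listeria), and -0.20 and -0.22 without dividing cells. It was -0.13 and -0.10 after TMM scaling and -0.07 in both after median-ratio scaling.

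Between the libraries, the family's share in HSC-gated cells was lower in the Listeria library, by 1.39 percentage points or a log2 ratio of -0.07 (-0.07 to -0.06). The quartiles of single cells overlapped (medians 30.7% and 29.3%). The ratio was -0.05 in multipotent progenitors, -0.02 in lymphoid-primed cells, -0.03 in B lineage cells and -0.07 in megakaryocyte cells, and 0.04 in T and NK cells. Over all kept cells it was 0.03, of the opposite sign to the HSC gate; the libraries differ in their mix of gates, with 1450 against 403 B lineage cells. In HSC-gated cells split by immediate early genes, whose transcripts appear within minutes of stimulation, the share was 30.2% and 28.6% in cells high in Fos (at least 5 UMIs per 10000), 30.9% and 30.04% in other cells high in Atf3 (at least 2 per 10000), and 30.7% and 29.6% in cells low in both. The Listeria value was lower in all 3 classes. TMM and median-ratio factors moved the HSC ratio to -0.18 and -0.19 and turned that over all kept cells to -0.02 and -0.02; the factors shifted every gene of the HSC gate by -0.11 and -0.12.

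Bias of single genes was measured as a gene's share of the family's own UMIs, which takes out the total. A gene was called where this share differed by more than 25% of the lower value, with a counting interval that leaves out 1. For all genes the same rule was applied to CPM, as a background. In HSC-gated cells 6 of 80 genes were called higher in the Listeria library and 0 lower. On CPM, 2 of 80 were called higher and 0 lower, against a background of 16.3% of 2953 genes called either way (12.4% higher and 3.89% lower). On TMM scaling 1 was called higher and 7 lower, and on median-ratio scaling 1 higher and 9 lower, so the split of directions depends on the scale and only differences among the genes of the family are given here.

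Rps26, a small subunit protein near the mRNA exit channel, made up 0.629% of the family's UMIs in naive and 0.832% in Listeria HSC-gated cells, a log2 ratio of 0.40 (0.37 to 0.44). The ratio was 0.14 (0.11 to 0.17) in multipotent progenitors, -0.04 (-0.07 to -0.01) in B lineage cells, -0.07 in T and NK cells and -0.05 in megakaryocyte cells, with 1.21% and 1.17% of the family's UMIs in B lineage cells. Free RNA had 0.847% and 1.10% (log2 ratio 0.38). Over 15 alternative ways of processing, which included subtraction of free RNA, the HSC ratio of Rps26 ran from 0.22 to 0.48. The part of free RNA in the HSC difference was not tested further.

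The difference was widest among the cells with the least Rps26. Over cells, the 5th percentile, median and 95th percentile of the Rps26 share were 0.0879%, 0.605% and 1.18% in the naive and 0.442%, 0.806% and 1.251% in the Listeria HSC gate. The distributions overlapped, the upper ends lay close together and the lower ends far apart. Cells under 0.2% (a limit set after the values were seen) numbered 136 of 1109 (12.3%) in the naive and 4 of 980 (0.408%) in the Listeria HSC gate. They numbered 17 of 868 and 0 of 807 in multipotent progenitors, and 5 of 1450 and 1 of 403 in B lineage cells. A median naive HSC-gated cell had 13 Rps26 UMIs among 2137 of the family. The variance of Rps26 over cells was 3.83 times its counting variance in the naive HSC gate, the highest of the 80 genes there, where the median gene had 1.27. By immediate early class, naive HSC-gated cells stood at 0.630% (Fos high), 0.591% (Atf3 high) and 0.698% (low in both), against 0.809%, 0.823% and 0.871% in the Listeria library. Over naive HSC-gated cells the Rps26 share had Spearman correlations of -0.37 with the share of Malat1, a nuclear RNA, and 0.26 with the UMI total. With the mitochondrial and immediate early shares they were -0.13 and -0.26. Listeria HSC-gated cells had -0.20, 0.20, -0.14 and -0.12 in this order. For Malat1, naive multipotent progenitors and B lineage cells had -0.35 and -0.26. For the UMI total they had -0.06 and -0.03. The part of these measures in the result was not tested.

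**Figure D3:**
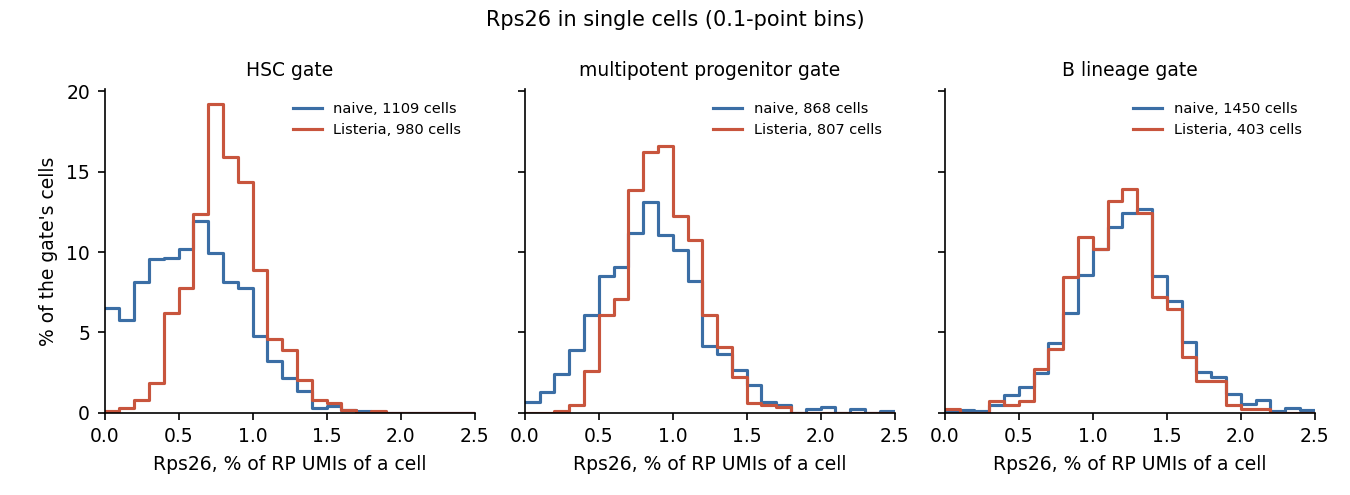
Percent of cells (y axis) by the share of Rps26 in a cell's ribosomal protein UMIs (x axis, 0.1-point bins) in the HSC, multipotent progenitor and B lineage gates, naive in blue and Listeria in red. In the HSC gate 136 naive and 4 Listeria cells lie under 0.2%, while the B lineage distributions overlap along their whole length.

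Rpl27 and Rplp0 were higher in the Listeria library in all 7 gates, most in multipotent progenitors. Rpl27, a large subunit protein, made up 0.205% and 0.267% of the family's UMIs in HSC-gated cells (log2 ratio 0.38, 0.33 to 0.43), 0.207% and 0.287% in multipotent progenitors (0.47) and 0.320% and 0.336% in B lineage cells (0.07). Its copy Rpl27-ps3, outside the family rule, went the other way in HSC-gated cells, from 27.9 to 15.0 CPM. Rplp0, which anchors the stalk that recruits elongation factors, made up 0.930% and 1.201% in HSC-gated cells (0.37, 0.34 to 0.39), 0.903% and 1.26% in multipotent progenitors (0.48) and 1.51% and 1.63% in B lineage cells (0.11). Free RNA was higher by 0.46 for Rpl27 and 0.30 for Rplp0. Over 15 alternative ways of processing, which included subtraction of free RNA, the HSC ratio ran from 0.19 to 0.39 for Rpl27. For Rplp0 it ran from 0.18 to 0.41. The part of free RNA in these differences was not tested further. The other stalk proteins were not called: Rplp1 stood at 2.30% and 2.18% in HSC-gated cells. Over cells of the HSC gate, the middle 50% ranged from 0.759% to 1.06% for Rplp0 in the naive and from 0.984% to 1.37% in the Listeria library, so these ranges overlapped. Rpl7l1 was called too (0.55, 0.34 to 0.75) on 356 and 457 UMIs.

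Rps29 and Rpl38 were higher in the Listeria library in every gate. Rps29, a zinc-binding protein of the small subunit head, went from 2.03% to 2.57% in HSC-gated cells (log2 ratio 0.33, 0.32 to 0.35), and over the 7 gates with at least 50 cells in each library its ratio ran from 0.32 to 0.40. Rpl38, a large subunit protein known for a skeletal phenotype when 1 copy is lost in mice, went from 1.12% to 1.41% (0.32, 0.30 to 0.35) and ran from 0.22 to 0.40. Both were higher in free RNA as well, by 0.82 and 0.54. With free RNA subtracted at 5% of UMIs, the HSC ratios were 0.31 each.

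Among the 80 genes, 19 were higher in the Listeria library in all 7 gates, 28 lower in all 7 and 33 mixed. Of the 19, 14 were higher in free RNA as well, and of the 28, 17 were lower there. In free RNA the median log2 ratio of 79 tested members was -0.01, so about equal numbers lay on either side of 0. Counts of this kind over all genes are not given here. The lowest in HSC-gated cells were Rps24 (2.65% to 2.32%, -0.19), Rpl31 (-0.17) and Rpl22l1 (-0.17), followed by Rps7, Rpl35 and Rpl10 (-0.16 each). None of these 6 passed the 25% limit. In multipotent progenitors 5 genes were called higher and 0 lower, against a background of 411 higher and 159 lower among 2998 genes (19.0% called). The 5 were Rpl27, Rpl38, Rpl7l1, Rplp0 and Rps2, the last a protein of the mRNA entry channel at 1.05% and 1.35%. In B lineage cells 1 was called, Rps29 (background 7.06% of 3088 genes).

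**Figure D4:**
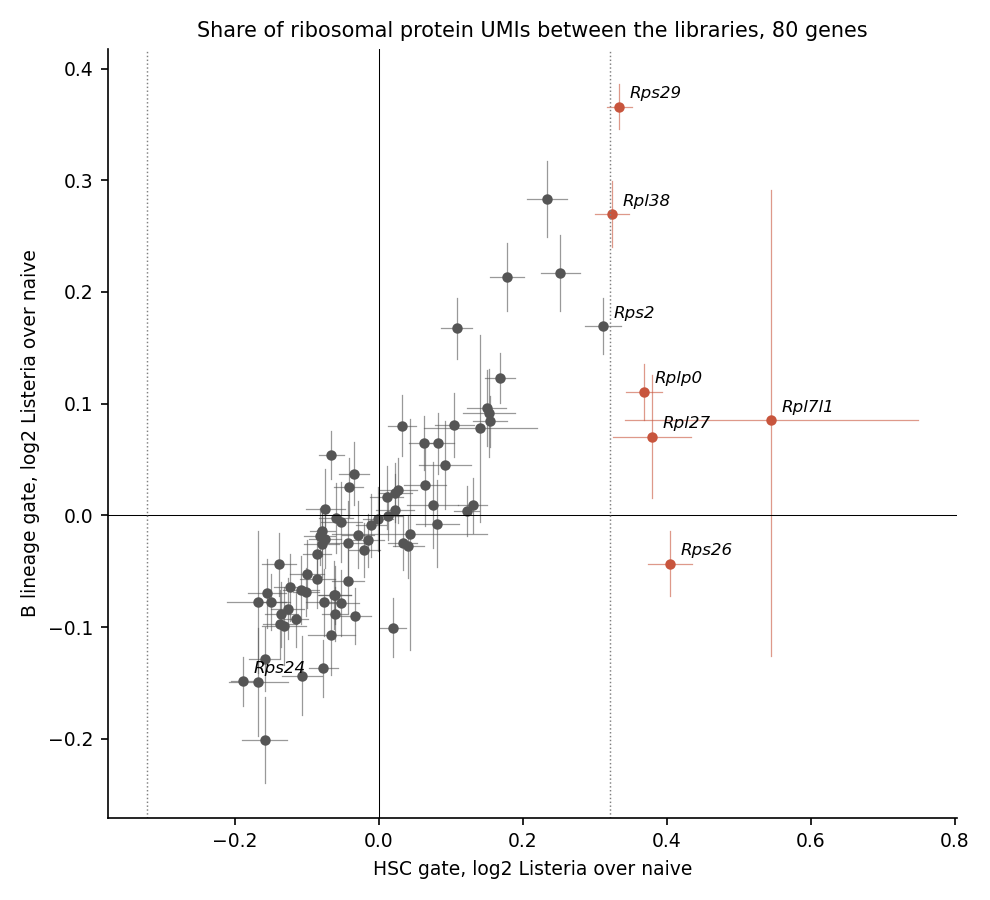
Log2 ratio Listeria over naive of each gene's share of ribosomal protein UMIs in the HSC gate (x axis) and the B lineage gate (y axis), with 95% counting intervals as bars; genes called in the HSC gate are red and dotted lines mark the 25% limit. Rps29 and Rpl38 are high on both axes, while Rps26, Rpl27 and Rplp0 lie at 0.37 to 0.40 in the HSC gate and at -0.04 to 0.11 in the B lineage gate.

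Between gates of the same library, single genes differed more. In B lineage against HSC-gated cells 16 of 80 genes were called the same way in both libraries, 9 higher and 7 lower, on the share of the family's UMIs. On CPM 31 were called, 2 higher (Rpl41 and Rps27l) and 29 lower, against a background of 62.3% of 3122 genes (38.4% higher and 23.9% lower). On TMM scaling the split was 5 higher and 12 lower, and on median-ratio scaling 5 higher and 9 lower.

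The genes higher in B lineage cells came from both subunits. Rps26 went from 0.629% to 1.21% in the naive (log2 ratio 0.95) and from 0.832% to 1.17% in the Listeria library (0.50). Rpl41, the shortest ribosomal protein, went from 1.17% to 1.84% (0.66) and from 1.30% to 1.95% (0.59). Rplp0 had ratios of 0.70 and 0.44, Rps2 0.62 and 0.48, Rpl27 0.64 and 0.33, and Rps27l 0.72 and 0.66. Rpl8 and Rpl13a, of the large subunit, had ratios between 0.34 and 0.41. Among the 7 gates, Rps26, Rpl41, Rpl27 and Rps2 were lowest in the HSC gate of both libraries, so their difference is not particular to B lineage cells. In neutrophils over HSC-gated cells, Rpl41 had 0.63 and 0.69, Rpl27 0.74 and 0.47, and Rplp0 0.73 and 0.37. Rpl13a went the other way there (-0.49 and -0.33). Without dividing cells, the naive and Listeria ratios were 0.27 and 0.13 for Rps27l, 0.35 and 0.17 for Rps2 and 0.52 and 0.28 for Rplp0, so these were no longer called in both libraries. Rps26 (0.92 and 0.43), Rpl41 (0.46 and 0.39) and Rpl27 (0.65 and 0.37) still passed the limit. The ratios of Rps26, Rplp0 and Rpl27 were larger in the naive library, whose HSC-gated cells had the lower levels given above.

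Of the 7 lower genes, Rpl22l1 had the lowest naive ratio, going from 0.382% to 0.261% in the naive (-0.55) and 0.340% to 0.248% in the Listeria library (-0.46). Rpl37 had -0.45 in both, Rps14, lost in the 5q- form of myelodysplasia in humans, -0.38 and -0.50, and Rps21, a small subunit protein, -0.40 and -0.35. Rpl37a, Rpl26 and Rpl23 ranged from -0.42 to -0.33. Without dividing cells 7 genes in all were called in place of 16. Rpl37 (-0.25 and -0.18) and Rps14 (-0.21 and -0.27) were then not called, while Rpl22l1 (-0.50 and -0.37) and Rps21 (-0.34 and -0.41) still passed the limit.

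Plasma cells took the B lineage differences further for some genes. They had 5 genes called higher and 4 lower the same way in both libraries (on CPM 77 of 79 were lower, against a background of 75.8% of 2206 genes lower, 8.70% higher and 84.5% called). Rpl41 made up 2.78% and 2.74% of the family's UMIs, 1.252 and 1.078 above HSC-gated cells on the log2 scale. Rpl22l1 made up 0.171% and 0.138%, at -1.16 and -1.30. Rpl10, a protein close to the tRNA sites, was higher by 0.79 and 0.78 in plasma cells and by 0.53 and 0.61 in dendritic cells, and not called in B lineage cells, where it had 0.07 and 0.15. Plasma cells numbered 71 and 33, so these values rest on few cells.

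Neutrophils had 14 genes called higher and 8 lower on the share of the family's UMIs. On CPM 0 were higher and 78 of 80 lower, against a background of 733 higher and 1199 lower among 2872 genes (67.3% called). Rpl7l1 was higher by 1.69 and 1.35 on 84 and 78 UMIs, Rps27l by 1.16 and 0.57, and Rps27a, which is made as a fusion with ubiquitin, by 0.55 and 0.66 (on CPM -0.54 and -0.36). Among the lower, Rpl21 had -0.65 and -0.79 and Rplp1 had -0.64 and -0.71. In the low-share cells with a Mmp8 UMI, Rps27a reached 3.46% and 3.43% of the family's UMIs, against 2.25% and 2.27% in those without. Dendritic cells had 12 higher and 4 lower by share, and 0 higher and 52 lower on CPM. The background there was 862 higher and 538 lower among 3099 genes (45.2% called). T and NK cells had 2 higher by share (among the 2 was Rpl27), and 1 higher and 6 lower on CPM. Their background was 636 higher and 389 lower among 3026 genes (33.9%). Megakaryocyte cells had 4 higher by share, and 3 higher and 1 lower on CPM (among them Rpl41, Rpl7l1 and Rps27l). Their background was 756 higher and 414 lower among 3075 genes (38.0%). Multipotent progenitor and lymphoid-primed cells had 0 called (10.0% of 2980 and 22.3% of 2973 genes on CPM).

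**Figure D5:**
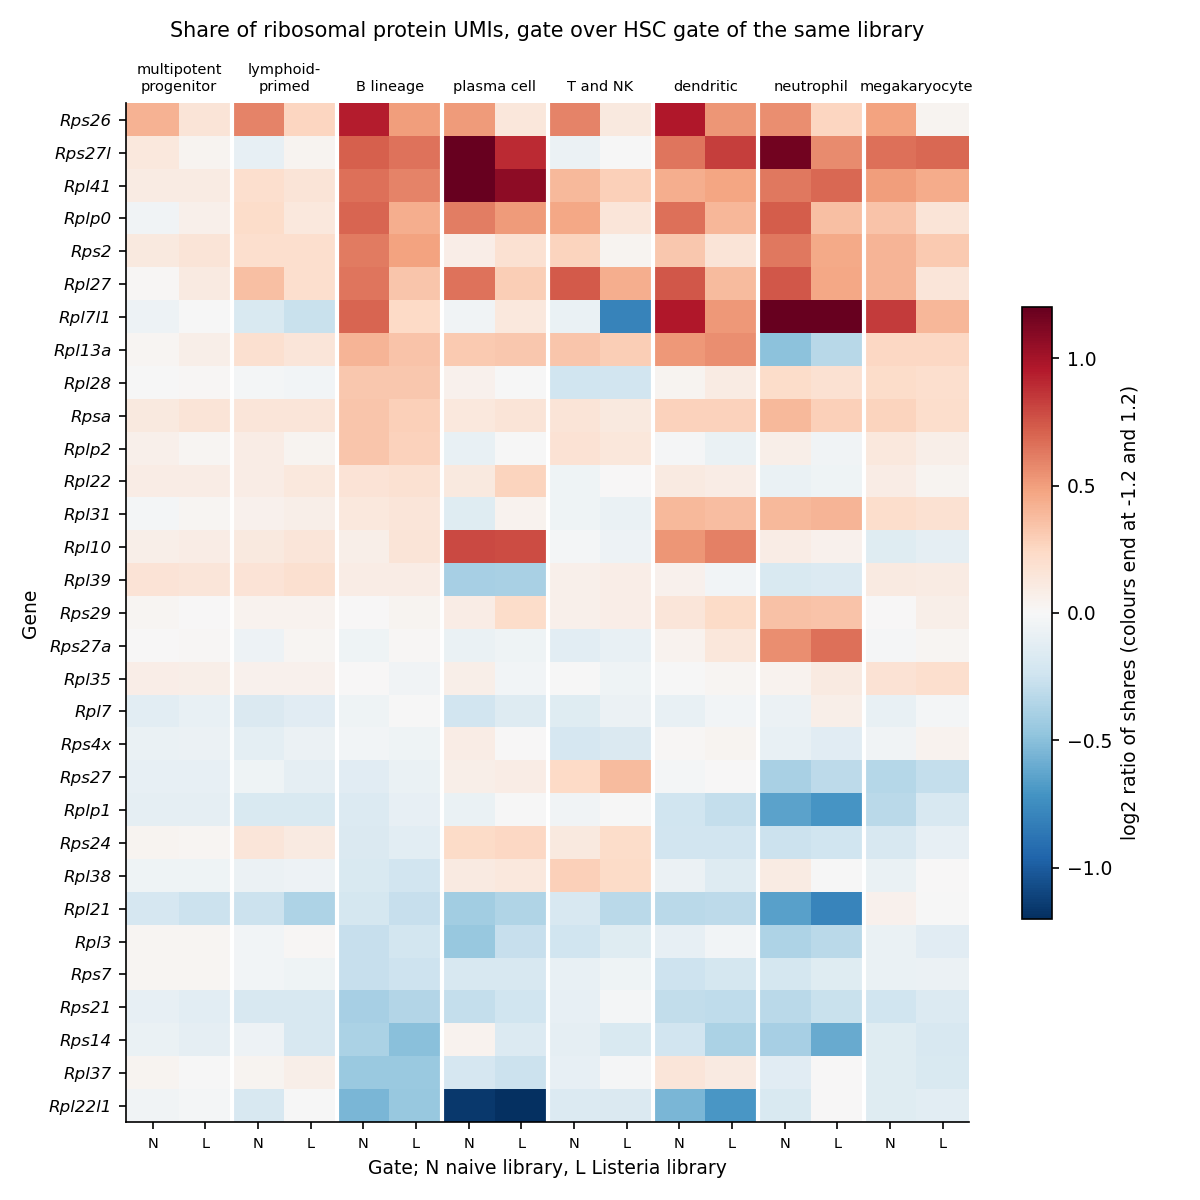
Log2 ratio of a gene's share of ribosomal protein UMIs in each gate to that in the HSC gate of the same library (colour; red higher, blue lower, ending at -1.2 and 1.2), for genes named by rule (rows, ordered by their B lineage ratio), naive (N) and Listeria (L) side by side. Rpl41 and Rps27l are red and Rpl22l1 blue in B lineage and plasma cells of both libraries, and among multipotent progenitors Rps26 stands at 0.42 (naive) and 0.15 (Listeria).

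Over the 7 gates, the range of share of a gene was taken as the smaller of the libraries' values. The widest were those of Rpl7l1 (1.87 on the log2 scale), Rpl21 (0.71), Rps27l (0.70), Rps27a (0.68) and Rpl13a (0.67). Rpl41, Rplp1, Rps27 and Rpl28 followed, from 0.66 down to 0.55. The range of Rpl7l1 rests on few counts, with 84 and 78 UMIs in neutrophils and 73 and 32 in T and NK cells. The median gene ranged by 0.35, and 11 of 80 exceeded 0.5. Rps27 was highest in T and NK cells and lowest in neutrophils of both libraries.

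Paralog pairs were compared within the pair, which takes out the total. Rpl22 and Rpl22l1 encode near-alike proteins of the large subunit, and Rpl22 is known for its role in early lymphocyte development. Rpl22l1 made up 36.6% (36.0% to 37.1%) of the pair's UMIs in naive and 34.6% (33.9% to 35.2%) in Listeria HSC-gated cells. It made up 32.1% and 32.6% in lymphoid-primed cells, 26.0% (25.5% to 26.5%) and 25.3% (24.4% to 26.2%) in B lineage cells, and 19.2% (16.8% to 21.7%) and 15.1% (12.5% to 18.1%) in plasma cells. T and NK cells (34.9% and 31.9%), neutrophils (34.9% and 35.5%) and megakaryocyte cells (32.8% and 32.1%) stayed near the progenitors, and dendritic cells (26.8% and 23.4%) near the B lineage. Free RNA stood at 28.0% and 29.9%.

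Rps27l made up 4.13% and 3.96% of its pair with Rps27 in HSC-gated cells, 7.23% and 6.42% in B lineage cells, 9.09% and 6.70% in plasma cells, 3.37% and 3.06% in T and NK cells and 14.1% and 10.4% in the few erythroid cells. The counts of Rps27 may hold reads of the copy Rps27rt, which had 76.6 and 85.7 CPM of its own.

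Within a gate most genes kept their share from cell to cell close to counting error. The variance over cells divided by the counting variance had a median over genes of 1.27 and 1.252 in the HSC gate and 1.34 and 1.32 in the B lineage gate. The highest in the Listeria HSC gate were Rpl41 (2.38), Rplp1 (2.16) and Rps2 (1.99), and in the B lineage gate Rps2 (3.44 and 3.57) and Rps24 (3.15 and 2.84). As a description over cells that share a library, the shares of Rpl41 and Rps2 had a Pearson r of 0.26 in 1109 naive and 0.41 in 980 Listeria HSC-gated cells, and those of Rpl41 and Rps27 of -0.32 and -0.39. The median over 3160 pairs of genes was -0.01 in both.

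Other genes of protein synthesis were compared on CPM. Elongation factors and other known TOP transcripts took 2.97% of UMIs in naive HSC-gated, 2.58% in B lineage and 1.36% in plasma cells and neutrophils each. Of 17 listed and tested, 0 were called higher and 4 lower on CPM in B lineage against HSC-gated cells in both libraries, among them Eef1a1 and Eef2 at -0.40 and -0.36 in the naive library, and 17 of 17 were lower in plasma cells. Over all genes, 38.4% were higher and 23.9% lower in B lineage cells, and 75.8% lower in plasma cells. Of 36 ribosome biogenesis genes, 21 were tested, of which 13 were higher and 1 lower in B lineage cells, such as Nop56 (1.16 and 0.93) and Nolc1 (1.04 and 0.96), with a median of 0.59 and 0.48. Their share of UMIs was 0.486% in naive HSC-gated and 0.678% in naive B lineage cells, where the family's share was lower. In Listeria against naive HSC-gated cells 7 of 19 tested biogenesis genes were higher and 0 lower (median 0.28), among them Dkc1 (0.62), Nop58 (0.48) and Nop56 (0.40), beside 12.4% of all genes higher and a median over all genes of 0.09.

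Initiation factors had 3 of 17 tested genes higher and 0 lower in Listeria against naive HSC-gated cells (the first) and 5 of 19 higher and 1 lower in B lineage against HSC-gated cells (the second). Over all genes, 12.4% were higher and 3.89% lower in the first comparison, and 38.4% and 23.9% in the second. Mitochondrial ribosomal proteins, which build the separate ribosome of mitochondria, had 2 of 21 higher in the first comparison, and 27 of 34 higher and 1 lower in the second (median 0.82 and 0.65). Genes of G2 and M phase had 2 of 2 higher in the first and 12 of 12 higher in the second. Of 14 immediate early genes, 1 was higher and 5 lower in the first, and 0 higher and 13 lower in the second. Of ribosome-associated genes outside the rule, Rpl36al was higher by 0.45 and 0.42 in B lineage against HSC-gated cells. Haemoglobin and neutrophil genes, listed to follow free RNA, took 0.014% and 0.008% of UMIs in HSC-gated cells.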

How the data were processed

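Single-cell RNA of mouse bone marrow was measured in 2 libraries, 1 naive and 1 Listeria, with a droplet 3' kit of 10x Genomics per the labels' protocols. Cell Ranger 3.0.2 and mm10 are named in the submitters' processing notes, and other settings are not given in the sources used here. The authors deposited tables of raw UMI counts, with no normalization, over 31053 genes and 6794880 listed barcodes in each library.

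Counts were summed over the kept cells of a gate (Python 3.11.15, numpy 2.4.6, scipy 1.17.1, pandas 2.3.3). Shares carry exact Clopper-Pearson intervals at 95%, and log2 ratios an interval from the exact binomial split, both for counting error only. PCR duplicates are removed by UMIs, but cells of a library are not replicates, so no test was made and no doublet caller was run. Genes under 50 CPM were not called. Stem and progenitor gates came last, and the HSC gate requires 0 UMIs of Flt3 and Cd48. Cells passing several gates were left out, except for neutrophil with myeloid progenitor (kept as neutrophil) and plasma cell with B lineage (kept as plasma cell). Scaling used edgeR 4.0.16 (TMM factors) and DESeq2 1.42.0 (median-ratio size factors) on summed counts, without a model. Gene positions came from GENCODE vM21 by identifier, with all 83 matched, and start-site letters from RefSeq. The code for ratios was run on simulated counts with counting error only, which says nothing of variation between cells or libraries.

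Genes are named by rule: the 10 widest ranges over gates, the 6 highest and 6 lowest library ratios in the HSC gate, the 4 highest and 4 lowest B lineage ratios, paralogs with their partners, stalk genes and Rpsa, and up to 4 genes of each of 8 further lists. The 83 genes, lists and gates were chosen with earlier results of these data known. Other genes in counts, Mmp8 and the Rps26 limit were named after their values were seen, and some genes are not reported here.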

Additional observations from a re-analysis of the deposited data

Results flagged for a closer look

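Counts of 11 features named as copies of ribosomal protein genes lie outside the symbol rule and were not counted in the family above. Rpl27-ps3 and Rpl36al, which are among them, were compared above only as single genes. Together they held 500.2 CPM (naive) and 593 CPM (Listeria), a signal outside the main measurement, where a count of 0 would allow 3 UMIs. Rpl36al, an expressed gene for a relative of Rpl36a, held most of it at 247.7 and 294 CPM, followed by Rps27rt at 76.6 and 85.7 CPM and Rpl10-ps3 at 64.7 and 86.5 CPM. Rpl27-ps3 went from 33.3 to 18.7 CPM over all kept cells, the opposite direction to Rpl27.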

How the results depend on the processing

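Each library is a single sample, and at most its counting error is known, so small log2 ratios are not separable from differences between preparations. No paired analysis was possible because each group has 1 library. In all, 22 alternatives were run (16 planned and 6 chosen after seeing the data) on 118 results. Of 1733 ratios under the alternatives, 97 changed sign: 18 of the family's share and 79 of single genes, whose reported log2 ratio was at most 0.19 in size. The 6 were leaving out shared barcodes, HSC-gated cells low in Fos and Atf3 only, leaving out dividing cells, adding copies to Rpl27, Rps27 and Rpl10, and the family's total scaled by TMM or by median-ratio factors. The cause of these shifts was not tested.

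Values below are log2 ratios of the family's share. Over all kept cells, Listeria over naive (0.03 as reported) was 0.026 at a minimum of 4000 UMIs, 0.032 at a mitochondrial limit of 5%, 0.030 without the 5% of cells with the most UMIs, 0.040 with free RNA subtracted, 0.026 without mitochondrial genes and Malat1 and 0.025 with ribosome-associated genes outside the rule added. It turned to -0.023 with TMM, -0.022 with median-ratio factors and -0.00050 without dividing cells. In the HSC gate (-0.067) it was -0.077 and -0.063 with 1 gene more or fewer in every gate, -0.061 with gating on thinned cells, -0.077 at the mitochondrial limit, -0.062 without the top 5%, -0.059 with free RNA subtracted, -0.072 without mitochondrial genes and Malat1, -0.18 with TMM, -0.19 with median-ratio factors and -0.056 in cells low in Fos and Atf3.

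For B lineage over HSC, each pair gives naive and Listeria (-0.27 and -0.23 as reported). It was -0.271 and -0.220 with 1 gene more, -0.263 and -0.245 with 1 fewer, -0.249 and -0.211 with gating on thinned cells, -0.261 and -0.222 at 4000 UMIs, -0.274 and -0.227 at the mitochondrial limit, -0.297 and -0.271 without the top 5%, and -0.304 and -0.287 as a mean of cells. It was -0.280 and -0.242 with free RNA subtracted, -0.306 and -0.269 without mitochondrial genes and Malat1, -0.126 and -0.0998 with TMM, -0.0710 and -0.0705 with median-ratio factors, -0.269 and -0.245 with HSC-gated cells low in Fos and Atf3, and -0.199 and -0.224 without dividing cells.

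The 6 genes called between libraries in the HSC gate became 0 at a fold of 1.5, 2 on CPM, 8 with TMM, 10 with median-ratio factors and 3 in cells low in Fos and Atf3. The 16 called in B lineage over HSC became 2 at a fold of 1.5, 31 on CPM and 7 without dividing cells. Other changes of sign in the family's share were lymphoid-primed between libraries as a mean of cells (0.00098), T and NK between libraries with median-ratio factors (-0.014), and megakaryocyte over HSC without dividing cells (0.018 naive, 0.038 Listeria) and with gating on thinned cells (0.0011, Listeria). Multipotent progenitor over HSC in the Listeria library turned to 0.038 with 1 gene fewer, 0.0095 with gating on thinned cells, 0.019 with TMM and 0.0087 with median-ratio factors. Neutrophils between libraries (0.01 as reported, with an interval that holds 0) turned negative under 6 alternatives, from -0.25 to -0.07.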
